A study of Homo sapiens with 6 samples.

Results

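The Eph receptors and their ligands, the ephrins, were examined here through 10 genes: the receptors EPHA1, EPHA2, EPHA4, EPHB2, EPHB3 and EPHB4 and the ligands EFNA1, EFNA5, EFNB1 and EFNB2. They were taken by gene symbol from a table of 58735 genes, in which each symbol was found once, and the same table holds 12 further Eph receptors and ephrins. The cells were of the Ishikawa line, derived from a human endometrial adenocarcinoma, and were transfected by lipofection with an siRNA against TCF19 (siTCF19, labelled TCF19 knockdown, 3 libraries) or with a control siRNA (siNC, labelled negative control, 3 libraries). RNA was taken 48 hours later from both groups, which were kept in DMEM with fetal bovine serum. Both groups are a single cell line, the siRNA sequences were not used here, and the labels do not say whether the 3 libraries of a group are separate cultures. The p-values therefore measure the spread between these libraries, which may be technical.

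Eph receptors form the largest family of receptor tyrosine kinases and are activated by ephrins on the surface of a neighbouring cell, so that signalling needs cell contact. Ephrin-A ligands are tied to the membrane by a lipid anchor and mainly bind EphA receptors, while ephrin-B ligands span the membrane and mainly bind EphB receptors. Both partners signal into their own cell: the receptor forward, through adaptors that lead to a reshaped actin cytoskeleton, and the ephrin in reverse. In epithelia the pairs are known for repulsion and for keeping cell populations apart, and in intestinal crypts EPHB2 and EPHB3 are known targets of WNT signalling that position cells.

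Receptor genes were called and ligand genes were not, and whether the classes differ in this was not tested. All 6 receptors passed the test, with EPHB3, EPHA2, EPHB4 and EPHA1 lower and EPHB2 and EPHA4 higher in siTCF19. Of the 4 ephrins, 0 passed it. The EPHA4 call was lost with DESeq2 (adjusted p = 0.129) and in some edgeR fits without 1 library. That of EPHA1 was lost in edgeR's fit without siTCF19 replicate 2 (adjusted p = 0.0957). The groups did not overlap in CPM for 5 of the 10 genes, 1 with siTCF19 above and 4 with siTCF19 below, against 49.2%, 24.4% and 24.9% of the tested genes. The count of 6 called genes among 10 stands beside a background of 41.5% of the 17299 genes tested. The 4 that fell stand beside 20.8% of tested genes called lower, and the 2 that rose beside 20.7% called higher. The EPHB3 fall was by far the largest of the 6 changes in siTCF19, at 3.31-fold, and it was the only one of the 10 called at 2-fold or more, where 4.85% of tested genes lay. Calls rest on edgeR's quasi-likelihood test with Benjamini-Hochberg adjustment over all tested genes, at a threshold of 0.05, and the adjusted p-values given here come from that fit unless another source is named. The median log2 fold change was -0.15 over the 10 genes and 0.00 over all tested genes.

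The sequences just upstream of the start of EPHB3, EPHB2 and EPHA2 are shown because EPHB3 fell most, EPHB2, of the same class, rose, and EPHA2 is the most abundant member. Each runs 5′ to 3′ on the gene's own strand over the 250 bases before the RefSeq start, from RefSeq on GRCh38.p14. They lie at chr3:184561535-184561784 (plus strand) for EPHB3, at chr1:22710588-22710837 (plus strand) for EPHB2 and at chr1:16156070-16156319 (minus strand) for EPHA2. Capitals mark matches on either strand to any of 7 motifs searched: GGGCGG (the GC box of SP and KLF factors), TGACGT (the core of the cAMP response element), TGANTCA (AP-1), CTTTGA (TCF and LEF), GGAATG (TEAD), CACGTG (the E-box of MYC and MAX) and CCAAT. Where motifs overlap, the capitals run together.
EPHB3: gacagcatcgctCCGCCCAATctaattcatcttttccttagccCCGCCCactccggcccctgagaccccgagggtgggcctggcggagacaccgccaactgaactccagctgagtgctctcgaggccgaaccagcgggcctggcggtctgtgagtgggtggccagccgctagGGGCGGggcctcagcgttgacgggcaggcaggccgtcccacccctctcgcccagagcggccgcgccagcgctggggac
EPHB2: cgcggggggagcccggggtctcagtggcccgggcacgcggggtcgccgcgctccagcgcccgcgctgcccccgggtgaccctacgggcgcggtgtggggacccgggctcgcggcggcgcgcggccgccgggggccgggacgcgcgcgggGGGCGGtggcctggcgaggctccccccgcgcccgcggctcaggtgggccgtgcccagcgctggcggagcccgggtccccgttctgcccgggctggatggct
EPHA2: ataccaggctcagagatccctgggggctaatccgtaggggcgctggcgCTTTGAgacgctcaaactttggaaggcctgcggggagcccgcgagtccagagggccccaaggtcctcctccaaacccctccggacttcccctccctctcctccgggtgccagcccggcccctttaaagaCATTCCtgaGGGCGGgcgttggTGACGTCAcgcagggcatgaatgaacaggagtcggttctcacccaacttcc
The EPHB3 window held 3 GC boxes and a CCAAT box, which overlaps the GC box farthest from the start. The EPHB2 window held 1 GC box and no other motif of the 7. The EPHA2 window held a GC box, the TCF and LEF core, the TEAD core and TGACGT on both strands, as the palindrome TGACGTCA.

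RefSeq gives 2 starts for EPHA4 and for EPHB2, of which the first is shown for EPHB2, and 1 start for each other member. A GC box was found for all 10 genes, with 1 to 5 matches per window, and in 42.6% of the 35116 windows in the RefSeq set. A CCAAT box was found in 6 of the 10 genes and in 32.0% of all windows. Of the 10 genes, only EPHA2 held the TCF and LEF core (11.2% of all windows) or the TEAD core (11.9%), and EPHA2 and EPHA4 held TGACGT (7.10%). AP-1 and the E-box, found in 6.57% and 6.34% of all windows, had 0 matches in the 10 genes. GC content was 70.0% in the EPHB3 window, 84.8% in that of EPHB2 and 63.2% in that of EPHA2, against a median of 58.0% over all windows. The shares are per window and were not matched for GC content, while each of the 10 genes counts with a match in any of its windows. These matches describe the letters in the windows and do not show binding.

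TCF19, the targeted gene (ENSG00000137310, chromosome 6, 31158542 to 31167159, plus strand), encodes a nuclear protein with a forkhead-associated domain. Its counts were 675, 529 and 606 in siTCF19 libraries, against 2572, 2905 and 2756 in siNC libraries (log2 fold change -2.20 ± 0.06 SE, adjusted p = 6.15e-29). Library totals ran from 14680022 to 15529688 counts in siTCF19 and from 14872698 to 16244705 in siNC. Epithelial identity was plain: EPCAM, PAX8, KRT8, KRT18, KRT19 and CDH1 were abundant, with the 9 epithelial markers summing to 2971 to 3111 CPM in siTCF19 and 3057 to 3196 CPM in siNC, while ESR1 had 0 to 1 count per siTCF19 library and 0 to 4 per siNC library. Of the 8 epithelial markers tested, CDH1, SOX17, KRT19 and MUC1 were called higher, by 0.44 to 0.70 on the log2 scale, and KRT8 (-0.40) and KRT18 (-0.43) lower in siTCF19. Leukocyte markers summed to 1.27 to 1.60 CPM in siTCF19 and 1.24 to 4.11 CPM in siNC. Among the 6 endothelial markers KDR had 0 to 1 count per library, and VWF was the main part of a sum of 14.4 to 18.6 CPM in siTCF19 and 7.38 to 8.15 CPM in siNC. VWF was called higher (log2 fold change 1.60), while CDH5, with 3 to 5 counts per siTCF19 library and 12 to 19 per siNC library, was called lower, and PECAM1, not tested, had 0 to 3 and 6 to 15 counts in these groups. Of the 7 stromal markers DCN had 0 counts in all libraries, 5 stayed under 1 CPM, and the sum of 125 to 135 CPM in siTCF19 and 178 to 180 CPM in siNC was nearly all COL1A2, called lower (log2 fold change -0.66), and COL1A1, called higher (0.58) in siTCF19. In bulk RNA, fewer cells of a type and less RNA per cell cannot be told apart, and the part of these marker sums in the Eph results was not tested.

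EPHB3 (ENSG00000182580, chromosome 3, 184561784 to 184582409, plus strand) is a transmembrane kinase that binds ephrin-B ligands. Its level was 37.8, 40.0 and 37.7 CPM in siTCF19 libraries, against 123, 138 and 121 CPM in siNC libraries, where CPM are counts relative to the library total, scaled by edgeR's TMM factors. The groups lay far apart, and the 3 siTCF19 libraries differed from each other by little. EPHB3 averaged 38.5 ± 1.31 CPM in siTCF19 and 127 ± 9.27 CPM in siNC (SD, n = 3 each). EPHB3 thus fell 3.31-fold (95% interval 3.03 to 3.61; log2 fold change -1.73 ± 0.06 SE, adjusted p = 5.59e-25). Only 96 of the 17299 tested genes had a log2 fold change as low or lower, and 2.17% of tested genes were called lower by at least 2-fold. The value stayed between -1.76 and -1.66 under every alternative run, each with the call kept.

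EPHB4 (ENSG00000196411, chromosome 7, 100802565 to 100827521, minus strand) is the preferred receptor of ephrin-B2 and, in the vasculature, a marker of veins. It stood at 96.6, 92.7 and 102 CPM in siTCF19 libraries, against 115, 128 and 123 CPM in siNC libraries, with no overlap. EPHB4 fell 1.25-fold (95% interval 1.16 to 1.35; log2 fold change -0.33 ± 0.05 SE, adjusted p = 4.06e-06). The transporter gene SLC12A9 overlaps its start by 702 bases on the opposite strand and was also called lower (log2 fold change -0.41, adjusted p = 3.03e-07), and without the strand setting of the counting, reads in the shared stretch cannot be told apart.

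EPHB2 (ENSG00000133216, chromosome 1, 22710839 to 22921500, plus strand), which binds ephrin-B ligands and also ephrin-A5, went the other way. It had 8.86, 8.08 and 7.48 CPM in siTCF19 libraries, against 4.81, 5.92 and 4.17 CPM in siNC libraries. Every siTCF19 library lay above every siNC library. EPHB2 rose 1.64-fold (95% interval 1.31 to 2.04; log2 fold change 0.71 ± 0.16 SE, adjusted p = 0.000285), at 65 to 140 counts per library. Its gene model of 12516 bases is the longest of the 10, which lowers its level per length.

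Ratios of counts within a library need no scaling between libraries. EPHB3 had 0.391, 0.432 and 0.369 counts for each EPHB4 count in siTCF19 libraries, against 1.06, 1.08 and 0.991 in siNC libraries. For each EPHB2 count, EPHB3 had 4.26, 4.95 and 5.04 counts in siTCF19 libraries, against 25.5, 23.3 and 29.1 in siNC libraries. Both ratios were lower in every siTCF19 library than in any siNC library, and they were chosen after the values were seen. The ratio of EPHB4 to EPHA2 counts, 0.600, 0.578 and 0.613 in siTCF19 libraries, against 0.579, 0.547 and 0.584 in siNC libraries, overlapped between the groups.

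EPHA2 (ENSG00000142627, chromosome 1, 16124337 to 16156087, minus strand) is a receptor for ephrin-A1 that also signals without ligand and is often abundant in carcinomas. Its level was 161, 161 and 167 CPM in siTCF19 libraries, against 199, 234 and 210 CPM in siNC libraries. The lowest siNC library still lay above the highest siTCF19 library. EPHA2 fell 1.32-fold (95% interval 1.23 to 1.42; log2 fold change -0.40 ± 0.05 SE, adjusted p = 2.89e-08). An antisense gene, AL451042.2, overlaps the start of EPHA2 by 877 bases but held 6 to 17 counts per library.

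EPHA1 (ENSG00000146904, chromosome 7, 143390289 to 143408892, minus strand), the receptor that gave the family its name, had 21.8, 18.6 and 21.3 CPM in siTCF19 libraries, against 25.3, 25.0 and 24.6 CPM in siNC libraries. The groups did not overlap, but the step between them was small. The fall was 1.21-fold (95% interval 1.07 to 1.38; log2 fold change -0.28 ± 0.09 SE, adjusted p = 0.0111), and without siTCF19 replicate 2 it was not called (log2 fold change -0.20, adjusted p = 0.0957). ZYX, which overlaps 823 bases at its end on the opposite strand, was not called (log2 fold change 0.12, adjusted p = 0.158).

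EPHA4 (ENSG00000116106, chromosome 2, 221418027 to 221574202, minus strand), a receptor that binds ephrins of both classes, was the scarcest of the 10. It had 19, 29 and 31 counts in siTCF19 libraries, against 12, 10 and 19 counts in siNC libraries, or 1.20, 1.94 and 2.0 CPM against 0.825, 0.636 and 1.22 CPM. The lowest siTCF19 library and the highest siNC library overlapped. The log2 fold change was 0.93 ± 0.35 (SE), a 1.90-fold rise with a wide 95% interval of 1.16 to 3.13 (adjusted p = 0.0321). DESeq2 did not call it (log2 fold change 0.936, adjusted p = 0.129). The authors' deposited table lists the same log2 fold change of 0.936 at an adjusted p of 0.132, so it is not separate evidence. It was also not called without siTCF19 replicate 2 (log2 fold change 0.84, adjusted p = 0.108), siTCF19 replicate 3 (0.81, 0.128), siNC replicate 1 (0.88, 0.0876) or siNC replicate 2 (0.73, 0.148).

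**Figure D1:**
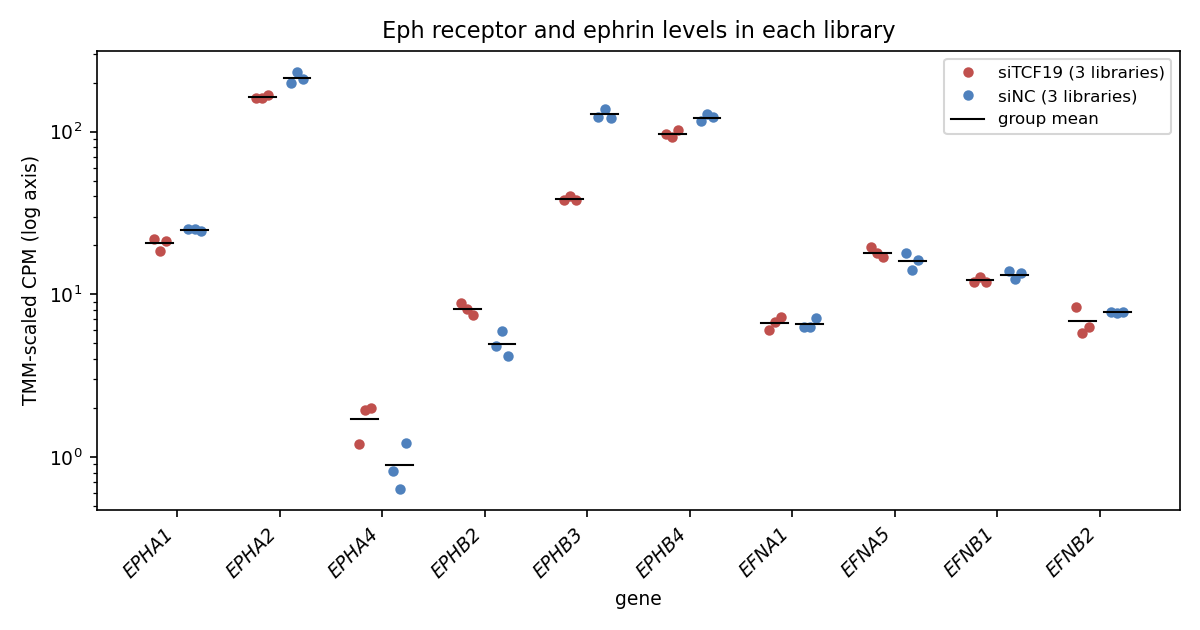
TMM-scaled CPM (log axis) of the 10 genes in each library, with siTCF19 in red left of siNC in blue, points for libraries and bars for group means. EPHB3 shows the widest gap, at 38.5 CPM in siTCF19 and 127 CPM in siNC on average, while the points of the 4 ephrins overlap between the groups.

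The 4 ephrin genes overlapped between the groups in every case. EFNA1 (ENSG00000169242, chromosome 1, 155127460 to 155134857, plus strand), an ephrin-A that binds EPHA2, had 6.01, 6.75 and 7.29 CPM in siTCF19 libraries, against 6.25, 6.30 and 7.19 CPM in siNC libraries. Its fold was 1.01, with a 95% interval of 0.821 to 1.25 (adjusted p = 0.930). EFNA5 (ENSG00000184349, chromosome 5, 107376889 to 107670895, minus strand), an ephrin-A known as a guidance cue for axons, had 19.5, 17.8 and 16.8 CPM in siTCF19 libraries, against 17.9, 14.1 and 16.2 CPM in siNC libraries. The fold of EFNA5 was 1.13 (95% interval 0.974 to 1.31, adjusted p = 0.191).

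EFNB1 (ENSG00000090776, chromosome X, 68828997 to 68842147, plus strand), a ligand of EphB receptors, had 11.9, 12.8 and 11.9 CPM in siTCF19 libraries, against 13.8, 12.3 and 13.5 CPM in siNC libraries. Its fold was 0.925 (95% interval 0.789 to 1.08, adjusted p = 0.457). EFNB2 (ENSG00000125266, chromosome 13, 106489731 to 106535662, minus strand), the ligand of EPHB4 and in the vasculature a marker of arteries, had 8.35, 5.81 and 6.25 CPM in siTCF19 libraries, against 7.77, 7.70 and 7.76 CPM in siNC libraries. The siTCF19 libraries of EFNB2 lay on both sides of the siNC libraries, which were close together. The fold of EFNB2 was 0.881 (95% interval 0.714 to 1.09, adjusted p = 0.349). In the authors' deposited table the adjusted p-values are 8.04e-121 for EPHB3, 0.0480 for EPHA1 and 0.388 to 0.961 for the 4 ephrins. The 4 ephrins had 87 to 308 counts per library, and 0 of them passed an unadjusted p under 0.05 or DESeq2. DESeq2 was run on 35347 genes and called 5758 of them. The share of all genes with an unadjusted p under 0.05 was not worked out. The 4 intervals together span folds of 0.714 to 1.31, and a p that misses the threshold does not show that the levels were equal. The antisense gene AL138689.2, within EFNB2, held 0 to 7 counts per library.

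Per gene length, the order of levels differed between the groups at a single place. In siTCF19 libraries EPHA2 led with 38.8 ± 0.883 FPKM (SD, n = 3), followed by EPHB4 with 14.97 ± 0.774, EPHB3 with 8.42 ± 0.253 and EPHA1 with 4.31 ± 0.385 FPKM. In siNC libraries EPHA2 had 51.1 ± 4.23 FPKM, EPHB3 27.9 ± 2.08, EPHB4 18.8 ± 0.960 and EPHA1 5.23 ± 0.083 FPKM, so EPHB3 stood above EPHB4 there and below it in siTCF19. The ephrins followed in the same order in both groups, from EFNB1 with 3.65 FPKM in siTCF19 and 3.95 FPKM in siNC through EFNA5 and EFNA1 to EFNB2 with 1.34 and 1.53 FPKM. EPHB2 (0.644 FPKM in siTCF19, 0.393 in siNC) and EPHA4 (0.224 and 0.117) came last. Neighbours in these orders did not overlap between their libraries, except EFNA5 and EFNA1 in siNC.

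The summed receptor level was lower in every siTCF19 library than in any siNC library, and the share of EPHB3 in it was smaller. Over the 14 Eph receptor genes of the table, the sum was 70.5, 69.2 and 72.5 FPKM in siTCF19 libraries, against 101, 115 and 104 FPKM in siNC libraries. The 8 ephrin genes summed to 20.9, 19.03 and 21.1 FPKM in siTCF19 libraries, against 20.0, 19.7 and 18.8 FPKM in siNC libraries, and these ranges overlapped. EPHB3 made up 11.9% ± 0.614 of the receptor sum in siTCF19 and 26.0% ± 0.608 in siNC (SD, n = 3 each). EPHA2 made up 54.8% ± 0.222 in siTCF19 and 47.7% ± 0.772 in siNC, and EPHB4 21.1% ± 0.606 and 17.6% ± 0.443. Within the 5 EphB genes, EPHB4 was 61.5% of the sum in siTCF19 and 39.7% in siNC, and EPHB3 34.6% and 58.8%. Shares of a sum move together, so the larger shares of EPHA2 and EPHB4 stand beside lower levels of both genes.

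**Figure D2:**
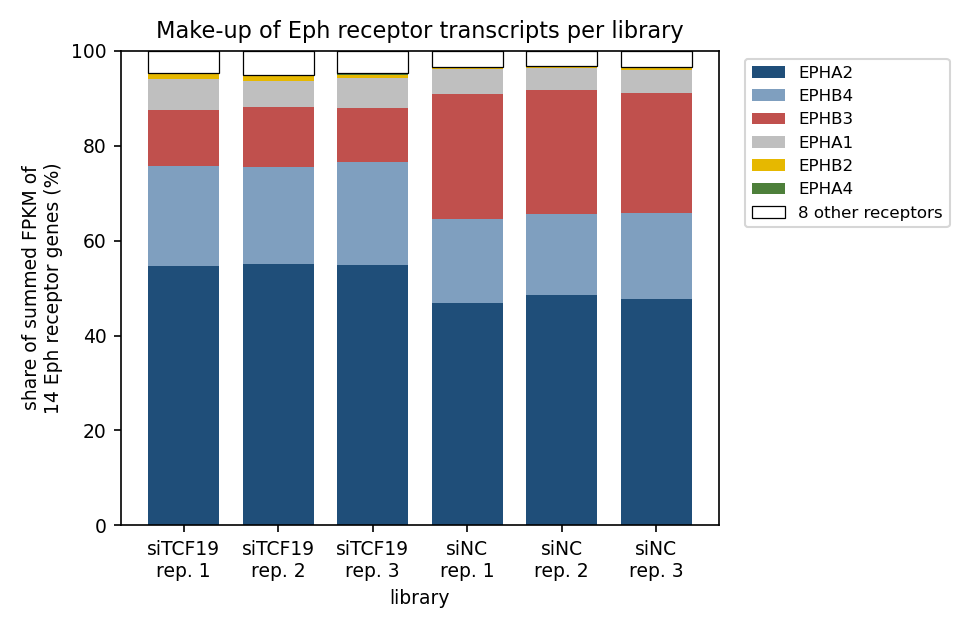
Share of the summed FPKM of 14 Eph receptor genes (percent, vertical axis) held by each receptor in each of the 6 libraries, siTCF19 left of siNC. The red EPHB3 segment averages 11.9% in siTCF19 and 26.0% in siNC.

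The rest of the family was set beside the 10 genes. Of 14 Eph receptor genes 11 passed the filter on low counts, and 8 of these were called, 3 higher and 5 lower, beside 41.5% of all tested genes called, 20.7% higher and 20.8% lower. Of 8 ephrin genes all passed the filter and 0 were called, 0 passed an unadjusted p under 0.05 and 0 were called by DESeq2. DESeq2 called 5758 of 35347 genes, and the share of all genes at that unadjusted p was not worked out. Whether receptors and ligands differ in these calls was not tested. The tested receptors had 10 to 3671 counts per library and the ephrins 14 to 308. Of the called receptors, EPHB2 (65 to 140 counts), EPHA3 (73 to 125), EPHA7 (41 to 107) and EPHA4 (10 to 31) lay in or below the ephrins' range. EPHB3 (585 to 2169), EPHB4 (1388 to 2008) and EPHA2 (2403 to 3671) lay above it, and EPHA1 (278 to 393) reached above it. A part of depth in these calls was not tested. EPHA7, a receptor with known roles in the nervous system, rose 2.19-fold, with 6.77, 7.01 and 6.45 CPM in siTCF19 libraries, against 3.44, 3.18 and 2.63 CPM in siNC libraries (log2 fold change 1.13 ± 0.18 SE, adjusted p = 1.25e-06). EPHA3, an ephrin-A5 receptor, had 4.62, 6.14 and 4.90 CPM in siTCF19 libraries, against 7.77, 7.38 and 8.02 CPM in siNC libraries, and fell by 0.57 ± 0.16 (SE) on the log2 scale (adjusted p = 0.00292).

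EPHA6 (log2 fold change -0.27), EPHA10 (-0.17) and EPHB6 (0.01), a receptor without kinase activity, were not called, nor were the ephrins EFNA2 (0.56), EFNA3 (-0.26), EFNA4 (0.14) and EFNB3 (0.07). EFNA2 had 14 to 40 counts per library, and without siTCF19 replicate 2, its lowest siTCF19 library, 1 of these 4 ephrins was called higher. EPHA5, EPHA8 and EPHB1 had 0 to 7 counts per library and were not tested. In these libraries 3 counts correspond to 0.190 to 0.200 CPM in siTCF19 and 0.191 to 0.206 CPM in siNC.

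**Figure D3:**
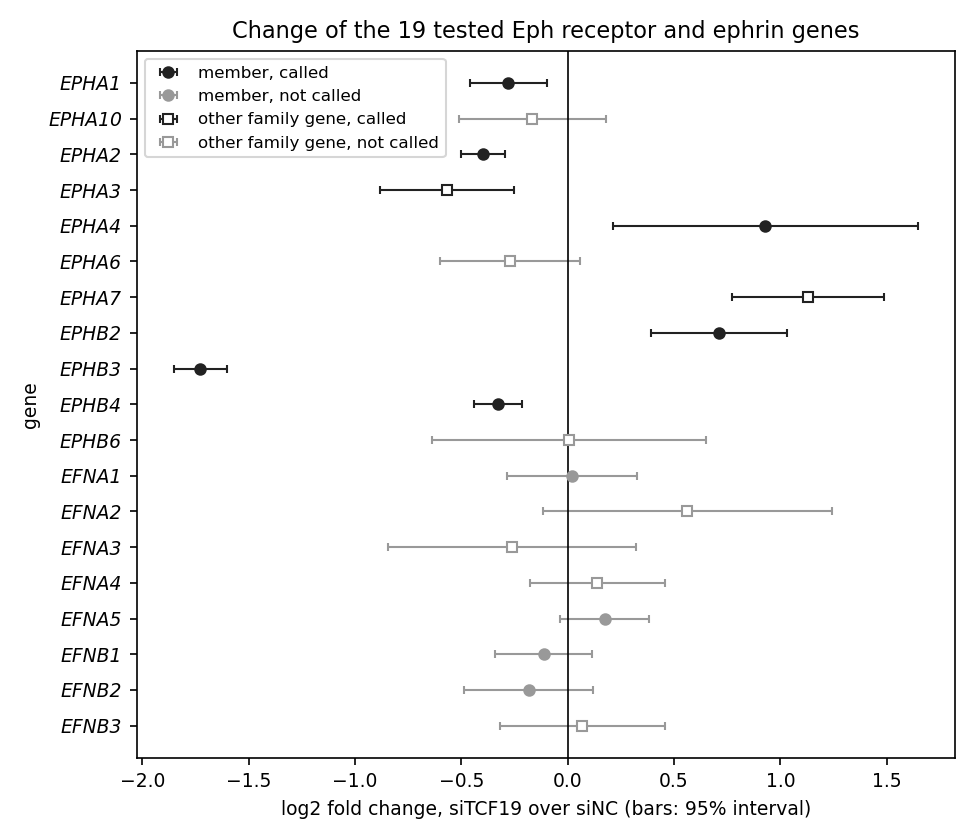
Log2 fold change of siTCF19 over siNC with 95% intervals (bars) for the 19 tested Eph receptor and ephrin genes, filled circles for the 10 chosen genes and open squares for the rest, black where called. EPHB3 lies lowest at -1.73 and EPHA7 highest at 1.13, and the intervals of all 8 ephrins cross 0.

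Genes that carry Eph signals into the cell moved in both directions. Of 22 tested adaptor and kinase genes 6 rose, 7 fell and 9 were not called, with a median log2 fold change of -0.04, beside 41.5% of all tested genes called, 20.7% higher and 20.8% lower. GRB10, an adaptor that binds activated receptor kinases, had 52.1, 54.9 and 49.5 CPM in siTCF19 libraries, against 116, 122 and 122 CPM in siNC libraries (log2 fold change -1.20 ± 0.06 SE, adjusted p = 1.04e-20). INPPL1, the lipid phosphatase SHIP2 that binds EPHA2, rose by 0.36 ± 0.05 (SE; adjusted p = 8.19e-08), and PIK3R1, a regulatory subunit of PI3 kinase, rose by 0.32 ± 0.05 (adjusted p = 1.61e-06) on the log2 scale. With library-size-only scaling 7 adaptor and kinase genes were called higher and 5 lower. That scaling called 7354 of the 17299 tested genes, 61.4% of them higher.

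Among 11 partners of ephrin-B reverse signalling 5 rose, 2 fell and 4 were not called (median 0.15), where 20.7% of all tested genes were called higher and 20.8% lower. GRIP1, a PDZ scaffold that binds the tail of ephrin-B, had 12.3, 11.8 and 9.93 CPM in siTCF19 libraries, against 6.73, 7.19 and 6.03 CPM in siNC libraries (log2 fold change 0.77 ± 0.14 SE, adjusted p = 9.74e-06). Of the dishevelled genes, DVL3 (0.30, adjusted p = 5.73e-07) and DVL2 (0.22, adjusted p = 0.00356) were higher and DVL1 was lower (-0.30, adjusted p = 1.1e-05) in siTCF19. With library-size-only scaling 8 of these partners were called higher and 1 lower, where 7354 of all 17299 tested genes were called, 61.4% of them higher.

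Proteases that cut Ephs and ephrins gave 4 rises, 2 falls and 4 genes not called among 10 tested (median 0.18), where 20.7% of all tested genes were called higher and 20.8% lower. MMP14, a membrane-bound metalloprotease that cleaves EPHA2, fell by 0.41 on the log2 scale (adjusted p = 3.23e-05). PSEN2, a subunit of gamma-secretase, rose by 0.24 (adjusted p = 0.000216). With library-size-only scaling 5 proteases were called higher and 1 lower, where 7354 of all 17299 tested genes were called, 61.4% of them higher. Of 7 phosphatase genes 1 rose, 2 fell and 4 were not called with TMM (median 0.03), beside 20.7% and 20.8% of all tested genes. ACP1, a low-weight tyrosine phosphatase that acts on Eph receptors, had 95.5, 95.1 and 98.5 CPM in siTCF19 libraries, against 140, 148 and 138 CPM in siNC libraries (log2 fold change -0.56 ± 0.05 SE, adjusted p = 7.08e-12). PTPN11, the phosphatase SHP2, fell by 0.45 (adjusted p = 5.61e-10), and PTPRF, a receptor phosphatase, rose by 0.19 (adjusted p = 0.000924).

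**Figure D4:**
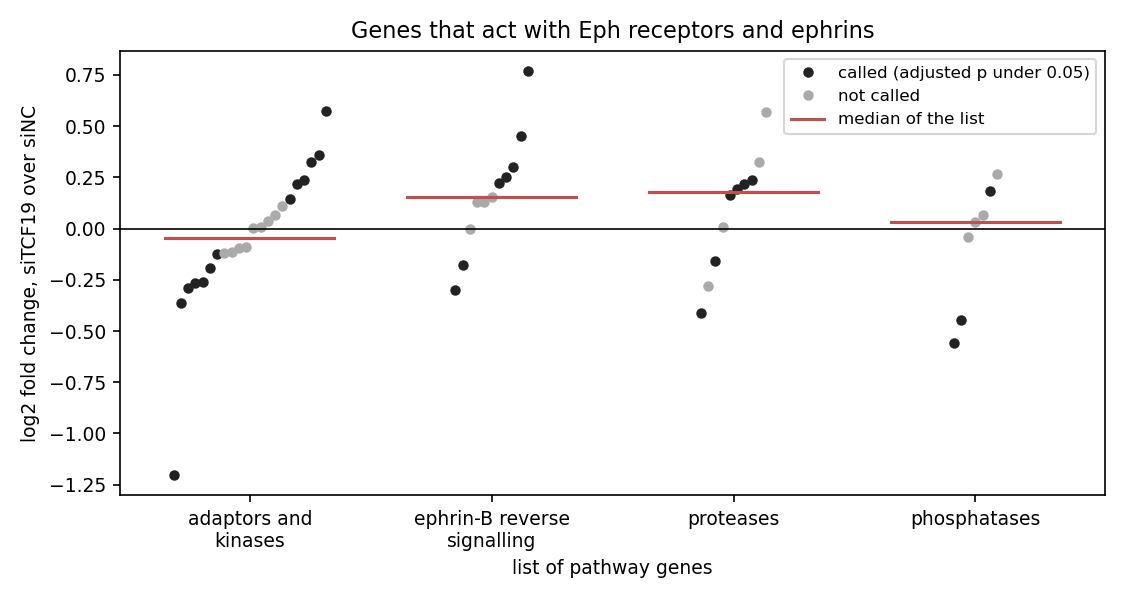
Log2 fold change of siTCF19 over siNC (vertical axis) for the tested genes of 4 pathway lists, each point a gene, black where called, with the list's median as a red line. The medians lie between -0.04 and 0.18, and GRB10 is the low point at -1.20 among the adaptors and kinases.

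The protein-coding genes outside the family whose profile lay nearest to that of EPHB3 were ALDH1L1, MDFI and INHBE. Likeness was the root mean square difference of log2 CPM, centred on each gene's mean, over the 6 libraries, and it was 0.034 for ALDH1L1, a folate enzyme, 0.054 for MDFI, an inhibitor of MyoD family factors, and 0.071 for INHBE, an inhibin subunit. Their log2 fold changes were -1.71, -1.64 and -1.75. With 2 groups, such a likeness mostly reflects a fold change of the same size.

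In an earlier analysis of these same libraries, genes with the word TGGTCAA or GGTCAAA in the 3′ UTR lay lower in siTCF19 than other genes. Counted over the longest annotated 3′ UTR of 13157 tested protein-coding genes, the median log2 fold change was -0.04 in 1694 carriers and 0.00 in 11463 others, while the median 3′ UTR was 3150 bases long in carriers and 1166 in others. The shares called either way were 53.2% of carriers and 47.7% of others, and the shares called lower were 31.6% of carriers and 23.4% of others. The comparison uses the same libraries as the earlier one, so it is not separate evidence. EPHB3, EPHA2, EPHB4 and EPHA1, the 4 receptors that fell, held 0 matches to either word, as did 11463 of the 13157 genes. EPHB2, which rose, held 1 match to TGGTCAA and 2 to GGTCAAA in a 3′ UTR of 7630 bases, and EFNB2 held 1 match to GGTCAAA. A part of these words in the Eph results was not tested.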

How the data were processed

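RNA-seq of 6 Ishikawa libraries was used as 1 deposited table. Per the submitters' processing notes, HISAT2 2.0.5 and featureCounts 1.5.0-p3 were used with build hg38. The labels do not state strand or multi-mapping settings. The authors deposited raw counts per gene and FPKM values, per the file headers, and FPKM equalled count over gene length and a library constant. Other deposited columns, per the file headers, are the group means as normalized signal, the authors' log2 fold change, and p-values with and without adjustment. The labels do not name the tool behind them, but for the 10 genes these log2 fold changes nearly equalled those of DESeq2 here. Gene starts and ends of all 58735 genes equalled GENCODE release 29.

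From the counts, edgeR 4.0.16 (R 4.3.3) filtered genes with filterByExpr, leaving 17299, scaled by TMM and fitted glmQLFit and glmQLFTest with the group as the only term. Kept genes held at least 99.7% of each library's counts. Standard errors were derived from the log2 fold change and the F statistic of the test. Intervals of folds are 95% intervals from them, with edgeR's moderated degrees of freedom (40.3). The variance behind them is drawn partly from other genes, and they cover the spread between libraries only. Reads lack molecular identifiers, so PCR copies were not removed. FPKM values were used for levels between genes and for the sums and shares set side by side between the groups, all untested. Tests were tried on simulated counts in which far fewer genes changed than were called here, and no result given here rests on that trial. Same-numbered libraries of the groups had correlations of -0.024 to 0.021 of their deviations, and the other pairs -0.029 to 0.020. No pairing by number showed, but with so few libraries a weak one could be missed.

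Alternatives were RLE, library-size-only scaling, no filter on low counts, DESeq2 1.42.0, a replicate block and leaving out each library. Genes and lists were chosen with earlier results of these data known. The text names the 10 genes, TCF19, the rest of the family and up to 3 called genes of lowest p per pathway list. DVL2, overlapping genes and the 3 genes nearest in profile to the gene of lowest p are also named. The markers were named after their values were seen. Some results of the pathway lists are not reported here. Python 3.11.15 and matplotlib 3.10.9 were used for tables and figures.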

Additional observations from a re-analysis of the deposited data

How the results depend on the processing

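Over the 10 genes and 11 alternatives, 101 of 110 log2 fold changes kept their direction and their side of the threshold, 6 were no longer called and 3 changed sign. EPHB3, EPHA2, EPHB4 and EPHB2 were called in the same direction under all 11. Of the 6 lost calls, 5 were of EPHA4, so that the count of higher genes among the 10 was 1 with DESeq2 and 1 to 2 when leaving out each library, against 2, and 1 was of EPHA1 without siTCF19 replicate 2. EPHA4 ranged from 0.73 to 1.22 on the log2 scale, with adjusted p-values up to 0.148. The 3 sign changes were of EFNA1, which is near 0 and was never called: from -0.04 to 0.10 when leaving out each library, with -0.041 without siTCF19 replicate 3, -0.01 without siNC replicate 1 and -0.01 without siNC replicate 2. The cause of these changes was not tested, and each fit that leaves out a library also holds fewer libraries. With a replicate block, 2 of the 10 genes were called higher and 4 lower, as without it, and 6874 genes were called in all, against 7183, so the block changed no call of the 10. Library-size-only scaling moved the median of all genes to 0.06 and the share of called genes that were higher to 61.4%, against 49.9% with TMM. EPHA4, with the widest interval of the 10 genes, had 10 to 31 counts per library, and the 4 ephrins had 87 to 308; a part of depth in these results was not tested.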
